A study of Rattus norvegicus with 16 samples.

Results

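The genes that encode voltage-gated sodium channels and voltage-gated calcium channels, with the subunits that accompany their pores, were examined in 2 brain regions of aged rats, hippocampus and cortex. Members were the rows of the array table that carried exactly 1 gene symbol beginning with Cacna, Cacnb or Cacng, or with Scn followed by a digit, and a gene with more than 1 such row kept the row with the highest mean over all arrays. This gave 35 genes from 36 rows, of 27342 transcript clusters in all (a transcript cluster is the set of probes on the array that reads a gene). Of the 35, 24 were calcium channel genes and 11 were sodium channel genes. The row left out was a second one for Scn3a, and Scn9a has no row of its own because its cluster carries 2 symbols. All samples came from male Sprague-Dawley rats that were aged 15 months at the start, so that the animals sampled were older, and older at 12 than at 6 weeks. The study asked what dietary curcumin, the yellow polyphenol of turmeric, changed in their brains. The 8 groups were the hippocampus and the cortex of rats fed curcumin for 6 weeks, of controls at 6 weeks, of rats fed curcumin for 12 weeks and of controls at 12 weeks, each with 2 arrays. Curcumin was mixed into the chow, which was freely available, and controls ate the chow without it. Each combination of diet and duration had 6 rats, which gave both tissues, and tissue from every 3 rats was pooled before RNA extraction. An array thus read a pool of dissected tissue and not one animal, and hippocampal and cortical arrays of a combination share their animals. The labels describe biological replicates and the methods speak of arrays run in duplicate. The p-values therefore reflect array-to-array spread, part of which may be technical.

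In these channels a large alpha subunit forms the pore and senses voltage. Sodium channels of the brain carry the rising phase of the action potential, and their beta subunits are single-pass membrane proteins that tune gating and anchor the channel. Calcium channels fall into the Cav1 (L-type), Cav2 (P/Q-, N- and R-type) and Cav3 (T-type) families, which turn depolarisation into calcium entry at dendrites, terminals and in rhythmic firing, and alpha2delta and beta subunits bring Cav1 and Cav2 pores to the membrane. Most of the genes named gamma encode TARPs, the auxiliary proteins that bind AMPA-type glutamate receptors, the main receptors of fast excitation. Hippocampal principal neurons are known for high AMPA receptor levels and for dense calcium signalling in their dendrites.

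Values were log2 expression levels as the authors deposited them, on which a step of 1 is a doubling of signal. Over all clusters the 16 arrays had medians between 6.35 and 6.44, and the 2 arrays of a group correlated at 0.990 to 0.996. The mean level of 28 members lay above the median over clusters of 6.40, and 23 lay among the brightest 25% of all clusters. Scn10a and Scn11a, sodium channels of sensory neurons, lay among the dimmest 25%, with values between 5.04 and 5.39 on every array. The level of Cacna1f, a channel of the retina, stayed between 5.59 and 5.89, and Scn4a, the skeletal muscle sodium channel, between 5.20 and 5.78. Such dim rows can hold little more than background. The label of the hippocampal arrays was borne out by the markers of dentate granule cells, whose mean level was 7.69 to 8.32 there and 5.91 to 6.67 in the cortical arrays.

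Cortical arrays differed from each other in markers of neighbouring brain regions, and this touches several members. A list of 6 markers of striatal neurons had a mean level of 9.0 on replicate 1 of the 6-week control cortex, 8.38 on replicate 2 of the 12-week control cortex, 7.96 on replicate 2 of the 6-week curcumin cortex and 7.53 on replicate 2 of the 12-week curcumin cortex. The other 4 cortical arrays lay at 6.79 to 6.86, and the 8 hippocampal arrays at 6.66 to 6.86. Replicate 2 of the 6-week control cortex stood apart in a different way, with a mean level of 7.93 for 4 hypothalamic markers against 5.73 to 7.01 on the cortical arrays outside that group, and of 8.61 for 5 olfactory bulb markers against 6.49 to 7.15. Replicate 1 of that group was at 5.82 for the hypothalamic and at 7.60 for the olfactory bulb markers, so both of its arrays were above the other cortical arrays in the latter. Both arrays of the 6-week control cortex were low in the 4 measured markers of excitatory neurons (9.04 and 8.79, against 9.47 to 9.83 on the other cortical arrays). In the hippocampus, 4 choroid plexus markers reached 9.19 on 1 array of the 6-week controls and 8.64 on 1 array of the 6-week curcumin group. In such bulk tissue, fewer cells of a type and less RNA per cell cannot be told apart.

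Scn4b, a sodium channel beta subunit known for high expression in striatal neurons, and Scn7a, an atypical sodium channel alpha subunit, were the 2 members that varied most between cortical arrays. The level of Scn4b was 9.48 and 7.50 in the 6-week control cortex, 7.03 and 9.19 in the 6-week curcumin cortex, 7.44 and 8.98 in the 12-week control cortex, and 7.40 and 7.60 in the 12-week curcumin cortex. The 3 highest of these values were on the 3 arrays with the highest striatal marker level. In the hippocampus Scn4b stayed between 6.80 and 7.46. Scn7a was at 7.83 on replicate 2 of the 6-week control cortex, the array with the high hypothalamic markers, and between 5.23 and 5.88 on all 15 others. Cacng5, a TARP, showed the same array at its top, with 7.81 there and 6.16 to 6.87 elsewhere. No difference between groups in Scn4b, Scn7a or Cacng5 passed the test when all arrays were used, and the part of dissection in their values was not tested.

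**Figure D1:**
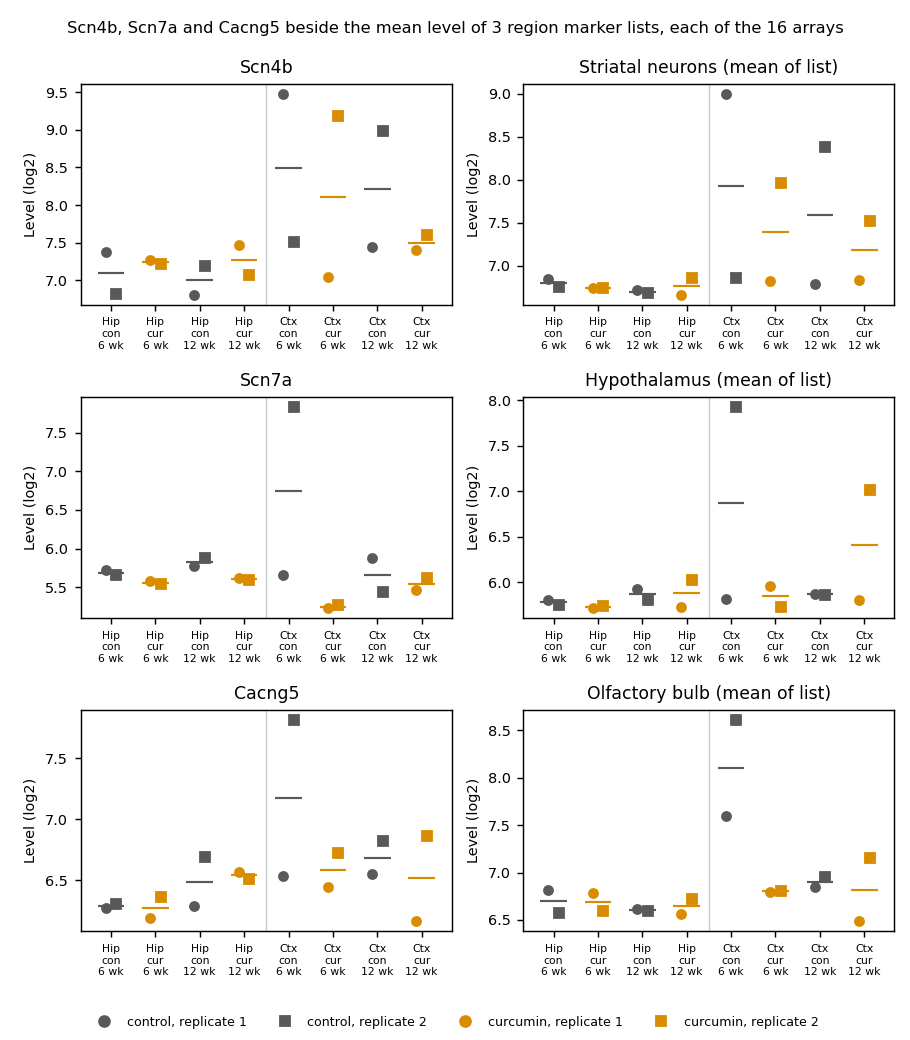
Log2 levels of Scn4b, Scn7a and Cacng5 (left) and mean log2 levels of the striatal, hypothalamic and olfactory bulb marker lists (right) on each of the 16 arrays, with circles and squares for replicates 1 and 2, grey for control, orange for curcumin and a line at the mean of each group. Scn4b is high on cortical arrays where striatal markers are high, and Scn7a and Cacng5 reach 7.83 and 7.81 on the cortical array where the hypothalamic list is at 7.93.

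Between the tissues, the sharpest contrast was in auxiliary subunits. Scn3b and Cacng8 were higher in the hippocampus and Scn3a was higher in the cortex on every array. In a limma fit over all 16 arrays, with the tissue difference averaged over the 4 combinations of diet and duration, 12 of the 35 members passed an adjusted p of 0.05 against 9.67% of all clusters. In the hippocampus 6 were higher and 6 lower, where 6.05% and 3.63% of all clusters were. An unadjusted p under 0.05 was reached by 18 members, against 21.3% of all clusters, and the fold rule of the study's methods (at least 1.5-fold or at most 0.66-fold) by 3, against 1.21%. A fit that took same-numbered arrays of the tissues as 1 pool, as a random block, called 12 members again, against 10.2% of all clusters. Replicate numbers were not shown to pair the arrays, and the correlation within blocks was 0.039. This fit therefore cannot show what sharing animals did to the calls. The median size of the difference, regardless of sign, was 0.19 on the log2 scale over the members and 0.05 over all clusters. These comparisons with all clusters are not matched for level, and the members were brighter (median level 8.33 against 6.40). The 3 members whose arrays did not overlap between tissues stand against 1.61% of all clusters.

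Scn3b, a beta subunit of brain sodium channels, ranged from 10.01 to 10.66 (median 10.38) over the 8 hippocampal arrays and from 9.01 to 9.53 (median 9.30) over the 8 cortical arrays. Its difference was 1.09 ± 0.051 (SE, log2; adjusted p = 1.06e-06), and within the 4 combinations of diet and duration it lay between 0.96 and 1.29. Scn2b, the other beta subunit called, was 9.47 to 9.69 (median 9.55) in the hippocampus and 8.67 to 9.50 (median 9.34) in the cortex, so the ranges overlapped. Its difference of 0.29 ± 0.072 (adjusted p = 0.0285) was lost in 12 of the 16 fits that left out 1 array, with adjusted p from 0.000645 to 0.0665, and held without either array of the 6-week control cortex, replicate 2 of the 6-week curcumin cortex or replicate 1 of the 12-week control hippocampus. Scn4b sits next to Scn2b in the genome and had the most negative difference among the members, -0.93 ± 0.362, which did not pass (adjusted p = 0.156).

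Of the sodium channel pores, only Scn3a, the form most abundant around birth, passed the test. Over 8 arrays each, it was 7.96 to 8.22 (median 8.04) in the hippocampus and 8.26 to 8.59 (median 8.34) in the cortex, with no overlap. The difference was -0.34 ± 0.058 (adjusted p = 0.00367), whereas the second row for Scn3a gave -0.16 ± 0.075 and did not pass (adjusted p = 0.239). Scn1a, the main pore of fast-spiking interneurons (-0.29 ± 0.107, adjusted p = 0.129), and Scn8a, a pore of the axon initial segment and nodes (0.20 ± 0.069, adjusted p = 0.101), had the next largest ratios of difference to error and did not pass. Scn2a, a pore of excitatory axons, differed by 0.04 ± 0.047 (adjusted p = 0.772), with a 95% interval of -0.07 to 0.14.

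Among the calcium channel pores, Cacna1h and Cacna1e were higher in the hippocampus and none of the 9 was lower at the threshold. Cacna1h, which encodes the T-type pore Cav3.2, ranged from 8.10 to 8.49 (median 8.36) in the hippocampus and from 7.60 to 8.14 (median 7.84) in the cortex. The difference was 0.48 ± 0.058 (adjusted p = 0.000364) and lay between 0.30 and 0.67 within the combinations of diet and duration. Cacna1e, the R-type pore Cav2.3, ranged from 9.41 to 9.86 (median 9.72) against 9.09 to 9.73 (median 9.38), a difference of 0.26 ± 0.054 (adjusted p = 0.0106). Within the combinations Cacna1e differed by -0.02 to 0.48, and without the 6-week control groups the difference was 0.18 and did not pass (adjusted p = 0.106). The L-type pores Cacna1c and Cacna1d differed by 0.05 ± 0.090 and -0.15 ± 0.100, and the P/Q-type pore Cacna1a by -0.03 ± 0.068, none past the test.

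Subunits that assemble with the calcium pores went both ways. Cacnb2 was higher in the hippocampus (8.08 to 8.42 against 7.72 to 8.19; 0.31 ± 0.075, adjusted p = 0.0242). Cacnb4 (8.49 to 9.14 against 8.88 to 9.52; -0.39 ± 0.094, adjusted p = 0.0228) and Cacnb3 (8.39 to 8.82 against 8.66 to 9.10; -0.19 ± 0.044, adjusted p = 0.0167) were lower. All 3 encode cytoplasmic beta subunits, which bind the linker between the first pair of repeats of the pore, and each overlapped between tissues on at least 1 array. Cacna2d2, an alpha2delta subunit that gabapentin binds, was lower (6.91 to 7.51 against 6.94 to 8.37; -0.50 ± 0.137, adjusted p = 0.0432), while Cacna2d3 was at 0.35 ± 0.116 without passing (adjusted p = 0.0959). The call for Cacna2d2 held in 4 of the 16 fits that left out 1 array (without replicate 1 of the 12-week control, either array of the 12-week curcumin or replicate 1 of the 6-week curcumin cortex), and its adjusted p ran from 0.00332 to 0.104 over the 16. Cacnb2 lost its call in 6 of these fits and Cacnb4 in 7, with adjusted p of at most 0.0668 and 0.0634.

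In the TARP group, Cacng8 (TARP gamma-8, the hippocampal AMPA receptor partner) stood against its relatives. It ranged from 8.80 to 9.13 (median 9.04) over the hippocampal arrays and from 8.03 to 8.44 (median 8.24) over the cortical ones. The difference of 0.78 ± 0.051 (adjusted p = 5.28e-06) lay between 0.67 and 0.88 within the 4 combinations. Cacng3 (9.33 to 9.93 against 9.22 to 10.22; -0.31 ± 0.079, adjusted p = 0.0328) and Cacng4 (6.87 to 7.27 against 7.16 to 7.61; -0.26 ± 0.058, adjusted p = 0.0169) were lower in the hippocampus. Cacng3 differed by -0.83 in its lowest and 0.13 in its highest combination of diet and duration, and its call held in 5 of the 16 fits that left out 1 array (adjusted p from 0.00207 to 0.0859). Cacng2, the TARP known as stargazin, was lower in all 4 combinations but did not pass (-0.22 ± 0.082, adjusted p = 0.133).

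**Figure D2:**
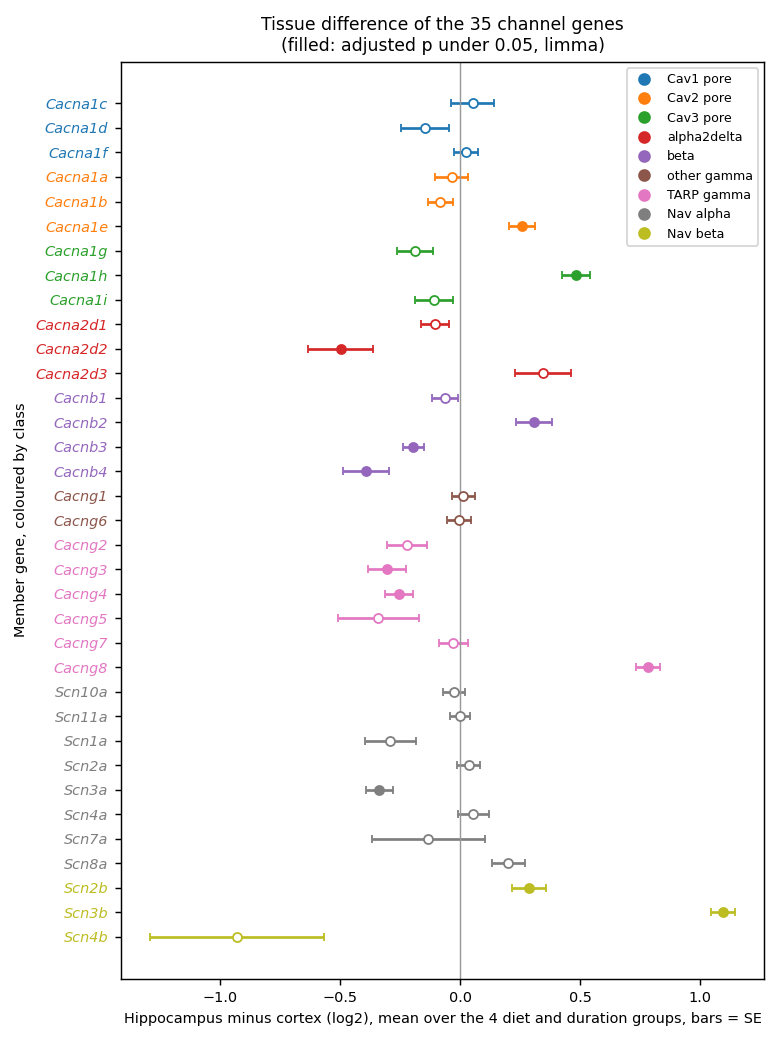
Hippocampus minus cortex (log2) for each of the 35 members, as the mean over the 4 combinations of diet and duration with its SE, coloured by subunit class. Filled points passed an adjusted p of 0.05 in limma. Scn3b at 1.09 and Cacng8 at 0.78 lie farthest to the right with short error bars, and Scn4b at -0.93 has the widest bar.

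Of the 12 called members, 10 had the same sign in all 4 combinations, the exceptions being Cacna1e and Cacng3. Of the 23 members not called, 6 did. Removing 1 array at a time left 7 to 17 members called. The count was 7 without replicate 2 of the 6-week control hippocampus (6.87% of all clusters were called) or replicate 2 of the 12-week control cortex (7.79%), and 17 without replicate 1 of the 6-week control cortex (11% of all clusters were called there). Scn3b, Cacng8, Cacna1h, Cacna1e, Scn3a, Cacng4 and Cacnb3 were called in all 16 of these fits. With the 6-week control groups of both tissues left out, 8 of the 12 remained, against 7.93% of all clusters. With control chow arrays only (4 against 4), 5 members were called, against 4.21% of all clusters, namely Scn3b, Cacng8, Cacna1e, Cacna1h and Scn3a.

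**Figure D3:**
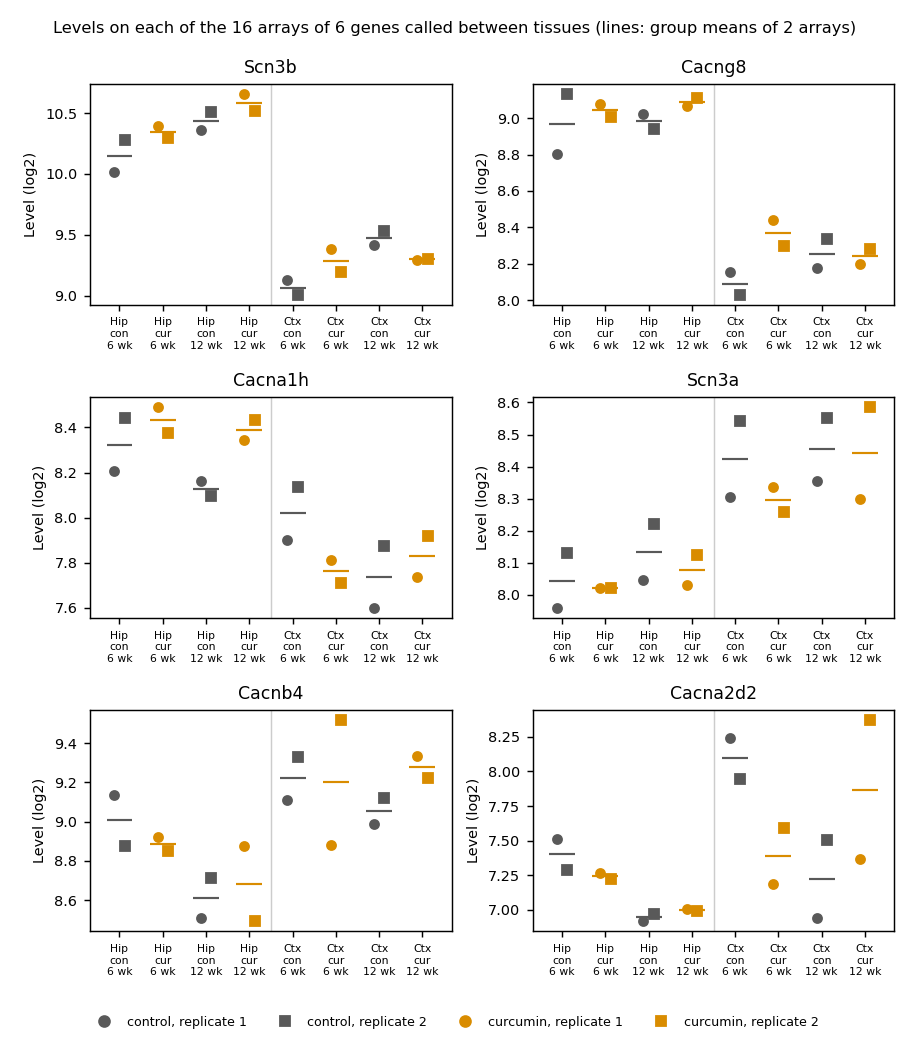
Log2 levels on each of the 16 arrays of 6 members called between the tissues, with a line at the mean of each group of 2 arrays. For Scn3b and Cacng8 all hippocampal arrays lie above all cortical arrays, for Scn3a all lie below, and Cacna2d2 shows a cortical spread from 6.94 to 8.37.

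Stretches of 300 bases around annotated starts, which can lie inside a gene, were read from the RefSeq promoter table for the rat build GRCr8. Each holds 250 bases before and 50 after a start, and the table had entries for 25 of the 35 members. Cacng8 and Scn3a are shown because they were the members with an entry whose arrays did not overlap between tissues. Neither holds a GC box (GGGCGG, the Sp1 core), the left arm (CAGCACC) or the right arm (GGACAGC) of the RE1 element that the neuronal repressor REST binds, on either strand. Searched the same way, 33.1% of all 33469 promoters hold the GC box, 6.78% the left arm and 6.59% the right arm. The Cacng8 promoter (chr1:74690954-74691253, minus strand) is rich in C and G with 16 CpG, and that of Scn3a (chr3:70666149-70666448, minus strand) is not, with 7 CpG.
Cacng8: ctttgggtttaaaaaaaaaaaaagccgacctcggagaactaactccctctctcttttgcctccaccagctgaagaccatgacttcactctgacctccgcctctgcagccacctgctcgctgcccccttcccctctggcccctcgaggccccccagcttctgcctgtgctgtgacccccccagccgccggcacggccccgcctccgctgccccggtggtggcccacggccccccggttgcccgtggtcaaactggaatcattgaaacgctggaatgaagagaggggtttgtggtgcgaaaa
Scn3a: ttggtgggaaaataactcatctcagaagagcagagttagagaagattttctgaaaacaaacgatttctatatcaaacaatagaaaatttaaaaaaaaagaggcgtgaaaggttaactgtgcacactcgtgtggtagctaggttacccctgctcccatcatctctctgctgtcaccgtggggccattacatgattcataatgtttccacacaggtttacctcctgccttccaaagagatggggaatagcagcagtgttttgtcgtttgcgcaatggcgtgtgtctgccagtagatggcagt

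Genes that work with these channels were read from lists chosen with earlier results known. Camk2a is in the list of calcium channel regulators and also in that of excitatory neuron markers. Of 6 measured AMPA receptor genes served by TARPs, 3 were higher in the hippocampus and 1 was lower. Gria1, an AMPA receptor subunit (0.85 ± 0.047, adjusted p = 2.55e-06), and Cnih2, a cornichon that joins the same complexes as TARP gamma-8 (0.97 ± 0.076, adjusted p = 1.67e-05), were higher on every array, as Cacng8 was. Gria4 was lower (-0.25 ± 0.049, adjusted p = 0.00702). Of 11 sodium channel partners, 4 were higher and 2 lower. Fgf13, an intracellular FGF that binds the sodium channel tail, was higher on every array (0.68 ± 0.063, adjusted p = 6e-05), while its relatives Fgf12 (-0.23) and Fgf14 (-0.21) were lower. Of 15 calcium channel regulators, 6 were higher and 3 lower, among them the calmodulin kinase gene Camk2b (0.32 ± 0.039, adjusted p = 0.000423) and the adaptor gene Stac2 (-0.55 ± 0.149, adjusted p = 0.0389). Nalcn, the sodium leak channel, differed by 0.19 and did not pass (adjusted p = 0.0525). The tissues also differed in cell makeup markers. All 4 excitatory neuron markers (median 0.42) and 3 of 4 astrocyte markers were called higher in the hippocampus. All 7 GABA interneuron markers were at negative values (median -0.28, 2 of them called). So were all 6 striatal (median -0.80, 0 called) and all 5 olfactory bulb markers (median -0.48, 2 called). The part of the markers in these differences was not tested.

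In the hippocampus no member passed the test for a curcumin difference. At 6 weeks limma called 0 of the 35 members and 0% of all clusters, and 0 members had an unadjusted p under 0.05, against 2.03% of all clusters. The median difference was -0.01 over the members, and the groups of 2 arrays did not overlap for 11 of 35, against 35% of all clusters. The largest ratios of difference to error belonged to Scn11a (-0.18 ± 0.083), Scn3b (0.20 ± 0.101) and Scn8a (0.15 ± 0.137), all with adjusted p near 1. At 6 weeks Scn3b was at 10.01 and 10.28 in controls and at 10.39 and 10.29 with curcumin, so the curcumin arrays were higher by a margin smaller than the gap between the controls. At 12 weeks it was at 10.36 and 10.51 in controls and at 10.66 and 10.51 with curcumin.

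At 12 weeks in the hippocampus, limma again called 0 members (0.00366% of all clusters were called), with 2 members at an unadjusted p under 0.05, against 5.11% of all clusters. The groups did not overlap for 12 of 35 members, against 27.4% of all clusters, and the median difference was 0.05 over the members. Cacng3 had the largest ratio, with 9.34 and 9.33 in controls and 9.93 and 9.66 with curcumin (0.46 ± 0.159, adjusted p = 0.859). Cacna1h was at 8.16 and 8.10 in controls and at 8.34 and 8.43 with curcumin (0.26 ± 0.117, adjusted p = 0.973). The T-type pore Cacna1g went the other way, with 7.49 and 7.45 in controls and 7.19 and 7.09 with curcumin (-0.33 ± 0.154, adjusted p = 0.982). The change of the curcumin difference from 6 to 12 weeks was called for 0 members (0% of all clusters), with 1 member, Cacng3 (0.59 ± 0.224), at an unadjusted p under 0.05, against 3.43% of all clusters. Cacng3 was also the 1 member past the fold rule there, against 0.523% of all clusters. Cacna1e (0.21) and Cacna1i (-0.29) had the next largest ratios of difference to error for this change and did not pass.

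In the cortex at 6 weeks, limma also called 0 members (0.106% of all clusters), although 12 members had an unadjusted p under 0.05, against 12% of all clusters. The groups did not overlap for 15 members, against 36.3% of all clusters. Scn2a came closest, with 9.78 and 9.52 in controls and 10.21 and 10.07 with curcumin (0.49 ± 0.095, adjusted p = 0.0758). Cacng3 was at 9.79 and 9.22 in controls and at 10.09 and 10.05 with curcumin (0.57 ± 0.159, adjusted p = 0.182). Scn8a was at 9.16 and 8.81 in controls and at 9.29 and 9.63 with curcumin (0.48 ± 0.137, adjusted p = 0.193). In all 3 genes both curcumin arrays lay above both controls, and replicate 2 of the controls was the lowest of the 4 arrays. Cacna2d2 ran the other way, with 8.24 and 7.95 in controls and 7.18 and 7.59 with curcumin (-0.71 ± 0.275, adjusted p = 0.324). Scn7a and Cacna2d2 were the 2 members past the fold rule, against 1.25% of all clusters.

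The count at 6 weeks in the cortex depended on replicate 1 of the controls, the array with the highest striatal markers. Without it, 7 members were called, against 2.77% of all clusters: Cacng3, Scn2a, Scn2b, Scn8a and Cacnb1 were higher with curcumin, and Scn7a and Cacng5 were lower. That fit leaves replicate 2 as the only control array, the one with raised hypothalamic and the highest olfactory bulb markers, and assumes that it varies like the other groups. Scn7a differed by -2.59 there. Over the 4 fits that left out 1 array of this comparison, the adjusted p of Scn2a ran from 0.0113 to 0.472. In the same comparison with all arrays, all 4 excitatory neuron markers were at positive values (median 0.81), 1 of them called. All 7 oligodendrocyte, 6 striatal, 5 olfactory bulb and 4 hypothalamic markers were at negative ones (medians -0.81, -0.50, -1.24 and -1.03). The 4 astrocyte, 6 microglia and 4 oligodendrocyte precursor markers were negative too (medians -0.23, -0.27 and -0.12). Their part in the channel values was not tested.

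At 12 weeks, the cortical values of calcium channel pores lay above the controls with curcumin, and 2 of the pores passed the test. All 9 measured pore genes had a positive difference, with a median of 0.42 (range 0.00 to 0.52). Of all clusters 50.2% had a positive difference, and the median over all 35 members was 0.06. The lowest were Cacna1f, a dim row, at 0.00 and Cacna1h at 0.09. The Cav1, Cav2 and Cav3 families were planned as separate classes and are joined here. Their genes were read on the same arrays, so they are not independent. The arrays did not overlap for 7 of the 9, and 7 had an unadjusted p under 0.05, against 15.1% of all clusters. For Cacna1a, Cacna1c, Cacna1d, Cacna1e, Cacna1g, Cacna1h and Cacna1i the 12-week controls had the lowest mean of the cortical groups. For Cacna1b and Cacna1f the 6-week controls did. Cacna1d was at 8.12 in the 12-week and 8.56 in the 6-week controls, and at 8.64 after 12 weeks of curcumin. For Cacna1c and Cacna1h the 12-week curcumin mean lay below that of the 6-week controls (7.84 against 7.89, and 7.83 against 8.02). The part of the low controls was not tested. In limma 2 of 35 members were called, both higher, against 3.24% of all clusters in either direction and 1.64% higher, and the groups did not overlap for 18 members, against 44.3%. The 11 sodium channel genes showed no such lean. The 8 alpha subunits had a median of 0.00 (range -0.25 to 0.14), none past the test. Among them Scn4a, Scn7a, Scn10a and Scn11a were dim, with mean levels of 5.17 to 5.73. The brighter Scn1a, Scn2a, Scn3a and Scn8a were at -0.25, -0.19, -0.01 and 0.14. The 3 beta subunits were all at negative values (-0.71 to -0.13), none past the test. Differences between these classes were not tested.

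Cacna1b, the N-type pore Cav2.2 of presynaptic terminals, was at 8.22 and 8.30 in the 12-week control cortex and at 8.85 and 8.70 with curcumin (0.52 ± 0.105, adjusted p = 0.0252). Cacna1e, the R-type pore, was at 9.09 and 9.33 in controls and at 9.73 and 9.62 with curcumin (0.46 ± 0.107, adjusted p = 0.0428). In both genes the lower curcumin array lay above the higher control. Both differences fell short of the 1.5-fold rule, which Scn4b (-0.71) and Cacna2d2 (0.65) met, 2 members against 0.827% of all clusters. Neither call held without any 1 of the 4 arrays, with adjusted p between 0.0684 and 0.186 for Cacna1b and between 0.0539 and 0.325 for Cacna1e. In the same comparison Cacna1g (7.25 and 7.36 against 7.79 and 7.84; 0.51 ± 0.154, adjusted p = 0.108), Cacna1a (8.31 and 8.51 against 8.88 and 8.76; 0.41 ± 0.136, adjusted p = 0.140, and 0.0448 after quantile normalization) and Cacna1d (8.12 and 8.13 against 8.77 and 8.52; 0.52 ± 0.199, adjusted p = 0.225) did not pass. For Cacna1b the 6-week cortex gave 8.20 and 7.97 in controls and 8.36 and 8.48 with curcumin (0.33 ± 0.105, adjusted p = 0.230), and the hippocampus gave -0.07 ± 0.105 at 6 weeks and -0.11 ± 0.105 at 12 weeks.

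In this comparison Cacng3 had its arrays apart in the opposite direction, with 10.22 and 10.11 in controls and 9.76 and 9.57 with curcumin (-0.51 ± 0.159, adjusted p = 0.123). Cacna2d2 was at 6.94 and 7.50 in controls and at 7.37 and 8.37 with curcumin (0.65 ± 0.275, adjusted p = 0.284), so the groups overlapped, and it was called only without replicate 1 of the curcumin group (1.15, adjusted p = 0.0390). Of the 15 calcium channel regulators, Rims1, a presynaptic scaffold that ties calcium channels to vesicles, was higher with curcumin (0.37 ± 0.085, adjusted p = 0.0418), and Ncs1, a neuronal calcium sensor, was lower (-0.23 ± 0.054, adjusted p = 0.0443). At 6 weeks in the cortex both of these had been higher with curcumin (0.57 and 0.36, both with adjusted p = 0.0488). None of the 11 sodium channel partners or the 6 AMPA receptor genes was called with curcumin in either tissue at 6 or 12 weeks. At 12 weeks in the cortex all 6 striatal markers had a negative difference (median -0.46), as had all 7 oligodendrocyte (-0.13), all 4 astrocyte (-0.27) and all 4 endothelial markers (-0.18). Of the 7 GABA interneuron markers 6 were positive (median 0.10), as were 3 of the 4 hypothalamic (median 0.57) and 4 of the 6 microglia markers (median 0.06). The 4 excitatory neuron markers were split, with 2 positive and 2 negative (median -0.20). None of these markers was called. Replicate 2 of the controls carried the higher striatal level, and replicate 2 of the curcumin group, where Cacna2d2 was at 8.37, a hypothalamic level of 7.01. On replicate 2 of the controls Cacna1b and Cacna1e were closer to the curcumin arrays than on replicate 1. The part of these markers was not tested.

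**Figure D4:**
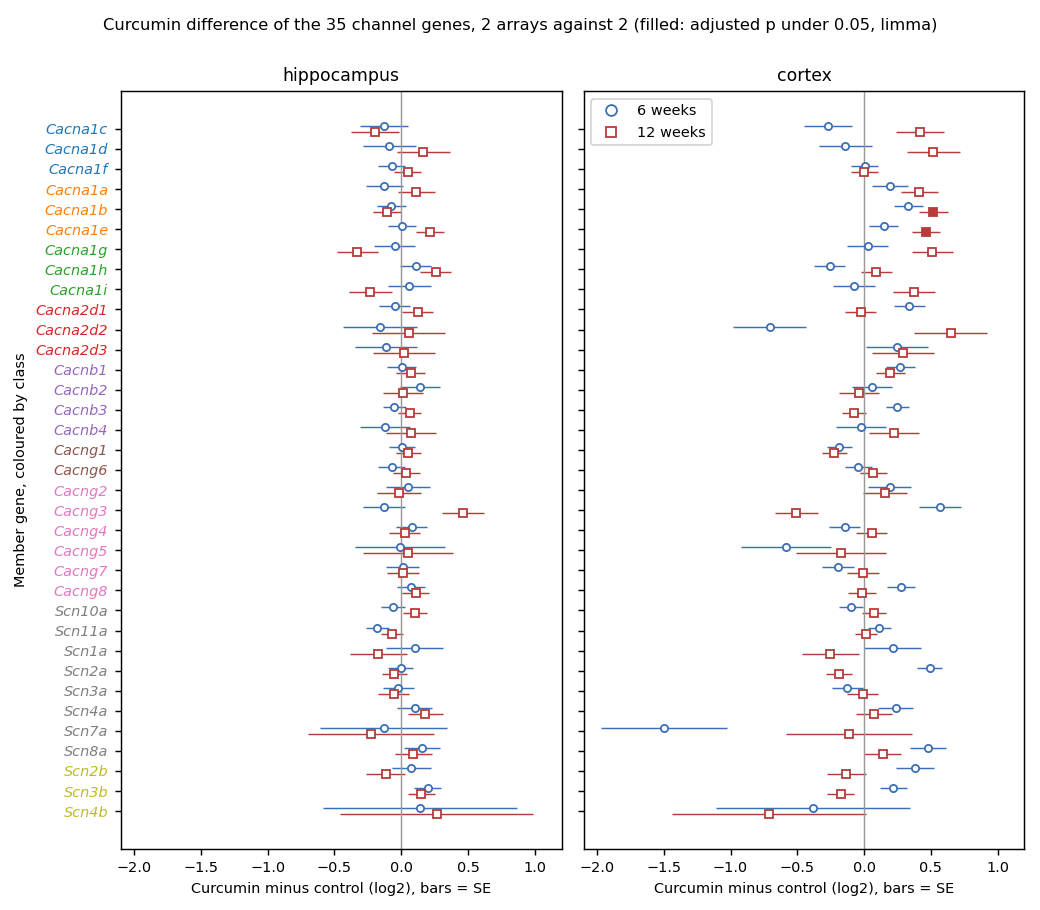
Curcumin minus control (log2) with its SE for each of the 35 members in the hippocampus (left) and cortex (right), with circles for 6 weeks and squares for 12 weeks. Filled points, only Cacna1b and Cacna1e in the cortex at 12 weeks, passed an adjusted p of 0.05 in limma. Hippocampal values lie between -0.33 and 0.46, and Scn7a in the cortex at 6 weeks lies at -1.50 with a wide bar.

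The promoters of the 2 pores called at 12 weeks are shown because they rose in the same comparison. That of Cacna1b (chr3:27944236-27944535, minus strand) has 34 CpG and 3 GC boxes, in capitals. That of Cacna1e (chr13:69444761-69445060, minus strand) has 10 CpG and none of the 3 motifs. On the minus strand a gene begins at its highest coordinate, which is 69613795 for Cacna1e and 27944292 for Cacna1b. The Cacna1e window thus lies at a start inside the gene, and the Cacna1b window where the gene begins. The 2 windows are therefore not like for like. Over the 28 promoter windows of the 25 members with an entry, the median number of CpG was 17.5, against 7 over all promoters, and 53.6% hold a GC box.
Cacna1b: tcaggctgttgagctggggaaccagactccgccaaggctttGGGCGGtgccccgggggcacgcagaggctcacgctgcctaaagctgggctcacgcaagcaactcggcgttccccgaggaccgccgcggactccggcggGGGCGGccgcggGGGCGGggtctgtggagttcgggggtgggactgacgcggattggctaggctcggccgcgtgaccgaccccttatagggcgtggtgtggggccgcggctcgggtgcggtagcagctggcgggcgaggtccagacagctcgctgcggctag
Cacna1e: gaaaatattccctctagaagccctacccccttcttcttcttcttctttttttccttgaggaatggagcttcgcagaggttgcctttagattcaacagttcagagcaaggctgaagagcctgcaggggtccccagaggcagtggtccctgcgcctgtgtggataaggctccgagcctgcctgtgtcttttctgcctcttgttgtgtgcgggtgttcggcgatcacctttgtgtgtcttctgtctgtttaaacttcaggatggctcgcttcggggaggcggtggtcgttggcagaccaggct

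Scn2a and Cacng3 were the members whose curcumin difference in the cortex passed the test for a change between 6 and 12 weeks. The change was called for 2 of 35 members, both lower, against 1.47% of all clusters in either direction and 1.02% lower. An unadjusted p under 0.05 was reached by 10 members, against 14.7% of all clusters, and the fold rule by 6, against 3.75%. For Cacng3 the difference went from 0.57 at 6 weeks to -0.51 at 12 weeks, a change of -1.07 ± 0.224 (adjusted p = 0.0440). For Scn2a it went from 0.49 to -0.19, a change of -0.68 ± 0.134 (adjusted p = 0.0376). Cacna2d2 had the next largest ratio of difference to error, with a larger change of 1.36 that did not pass. Its change lay between 0.85 and 1.86 over the 8 fits that left out 1 cortical array. Levels of Scn2a in the cortex were 9.78 and 9.52 in the 6-week controls, 10.14 and 10.21 in the 12-week controls, 10.21 and 10.07 after 6 weeks of curcumin and 10.09 and 9.88 after 12 weeks. For Scn2a the 6-week controls were thus the lowest group, the group in which excitatory neuron markers were low. For Cacng3 the 12-week groups also lay apart, in the opposite direction. The call for Scn2a held in 2 of the 8 fits that left out 1 cortical array, without replicate 1 of the 6-week controls and without replicate 1 of the 12-week curcumin group. The call for Cacng3 held in 1 of them, without replicate 1 of the 6-week controls. Among the partner genes the change was called for Fgf13 (-0.99 ± 0.179, adjusted p = 0.0305) and Ncs1 (-0.59 ± 0.077, adjusted p = 0.0137). Of the 4 excitatory neuron markers, 3 were also called lower for this change (median -0.93, range -1.32 to -0.43). All 7 oligodendrocyte, 5 olfactory bulb and 4 hypothalamic markers were at positive values (medians 0.68, 1.36 and 1.85), and 1 of 6 microglia markers was called higher. The part of these markers was not tested.

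The 2 arrays of the 6-week control cortex also enter the comparison of 12-week with 6-week cortex on control chow, which shares the control arrays with the curcumin comparisons. There limma called 5 members, 4 higher and 1 lower at 12 weeks, against 8.85% of all clusters (5.42% higher and 3.44% lower), and the arrays did not overlap for 17 members, against 54.9%. An unadjusted p under 0.05 was reached by 10 members, against 23.4% of all clusters, and the fold rule by 3, against 3.08%. Scn2a (0.53 ± 0.095, adjusted p = 0.00822) and Cacng3 (0.66 ± 0.159, adjusted p = 0.0266) were higher, as were the beta subunit genes Scn3b and Scn2b. Scn3b was at 9.13 and 9.01 in the 6-week controls and at 9.42 and 9.53 in the 12-week controls (0.41 ± 0.101, adjusted p = 0.0308). Scn2b was at 9.24 and 8.67, then at 9.44 and 9.50 (0.52 ± 0.144, adjusted p = 0.0489). Cacng7, a TARP of the type II branch, was lower, with 9.06 and 9.50 at 6 weeks and 8.81 and 8.77 at 12 weeks (-0.49 ± 0.121, adjusted p = 0.0303). Without replicate 2 of the 6-week controls, or without either array of the 12-week controls, 0 members were called, and without replicate 1 of the 6-week controls 11 were, against 9.27% of all clusters. In the same comparison all 7 oligodendrocyte, 6 striatal, 5 olfactory bulb and 4 hypothalamic markers were at negative values (medians -0.37, -0.29, -1.33 and -0.97). Called lower were 2 olfactory bulb, 2 GABA interneuron, 1 microglia and 1 dentate granule cell marker. All 4 excitatory neuron markers (median 0.86) and 1 GABA interneuron marker were called higher. Called higher too were 4 calcium channel regulators (Calm2, Ncs1, Rimbp2 and Camk2a), Fgf14, Gria3 and Cnih2. Camk2a is also 1 of the 4 excitatory neuron markers. The part of the marker differences was not tested.

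**Figure D5:**
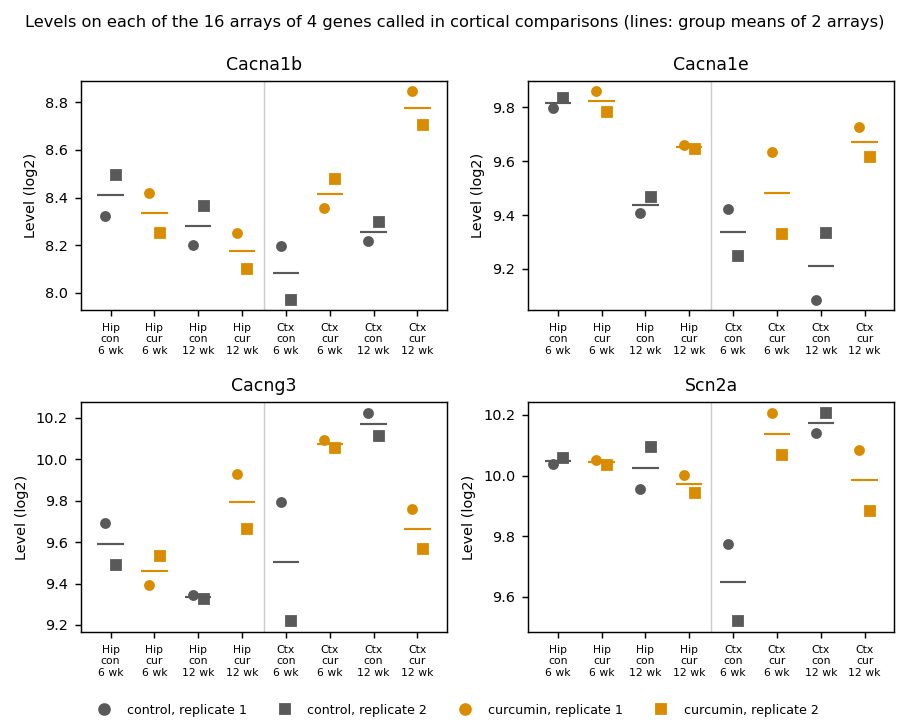
Log2 levels on each of the 16 arrays of Cacna1b, Cacna1e, Cacng3 and Scn2a, with a line at the mean of each group of 2 arrays. In Scn2a the 6-week control cortex (9.78 and 9.52) lies below the other cortical groups, and in Cacna1b the 12-week curcumin cortex (8.85 and 8.70) lies above them.

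In the hippocampus on control chow, the values of most calcium channel genes were negative for 12 against 6 weeks, and none passed the test. Limma called 0 members, against 4.27% of all clusters, with 5 at an unadjusted p under 0.05 (17.5% of all clusters) and 18 with arrays that did not overlap (47.3% of all clusters did not). The median difference was -0.11 over the members and 0.01 over all clusters. All 9 calcium pore genes and all 3 alpha2delta genes were at negative values, whereas the 8 sodium channel alpha subunits had a median of 0.00. Of these alpha subunits, the brighter Scn1a, Scn2a, Scn3a and Scn8a were at 0.13, -0.02, 0.09 and -0.18. Over all clusters 53.4% of differences were positive, and over the members 10 of 35. Cacna1e was at 9.80 and 9.83 in the 6-week controls and at 9.41 and 9.47 in the 12-week controls (-0.38 ± 0.107, adjusted p = 0.0763). Cacnb3 was at 8.81 and 8.82, then at 8.64 and 8.39 (-0.30 ± 0.088, adjusted p = 0.0869). Cacna1a was at 8.78 on both 6-week arrays, then at 8.24 and 8.46 (-0.43 ± 0.136, adjusted p = 0.110). The presynaptic partners of calcium channels Rims1 (-0.42 ± 0.085, adjusted p = 0.0233) and Rimbp2 (-0.45 ± 0.077, adjusted p = 0.0129), were lower in the same comparison. The 4 choroid plexus markers were all at negative values there (median -1.60), and their part was not tested. A fit on the 8 hippocampal arrays alone called 3 members lower, Cacna1e, Cacna2d2 and Cacna2d3, against 3.6% of all clusters in either direction. Duration and age at sampling go together here, and any difference in the handling of the 6- and 12-week sets cannot be told apart from them.

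The promoters of Scn2a and Cacng3 are shown because these genes moved in the same cortical comparisons. That of Scn2a (chr3:70710706-70711005, plus strand) has 4 CpG and none of the 3 motifs. That of Cacng3 (chr1:186632312-186632611, plus strand) has 19 CpG, 1 GC box and, spaced alike, 2 copies of each RE1 arm, all in capitals. The right arm and the GC box are read on the opposite strand. Each right arm stands before a left arm, so neither pair runs from left to right arm on the same strand. Cacng3 was the only member with the left arm, and the right arm was also found for Scn11a and Scn4a. These are matches of letters and not measured binding sites.
Scn2a: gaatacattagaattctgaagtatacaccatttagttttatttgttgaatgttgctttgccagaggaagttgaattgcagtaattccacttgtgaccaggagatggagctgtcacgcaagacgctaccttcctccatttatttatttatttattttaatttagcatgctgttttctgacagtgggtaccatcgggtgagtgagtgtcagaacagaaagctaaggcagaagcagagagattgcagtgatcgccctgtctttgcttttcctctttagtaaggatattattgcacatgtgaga
Cacng3: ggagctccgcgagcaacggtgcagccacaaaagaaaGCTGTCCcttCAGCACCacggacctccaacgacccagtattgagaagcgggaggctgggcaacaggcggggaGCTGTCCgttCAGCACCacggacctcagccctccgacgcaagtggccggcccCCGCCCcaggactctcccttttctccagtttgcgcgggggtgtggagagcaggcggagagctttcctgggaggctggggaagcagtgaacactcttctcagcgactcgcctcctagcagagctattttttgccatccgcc

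Position in the genome was a feature the choice of members did not use, and the values of close neighbours are given as a description, with no test. In GRCr8 the 35 genes lie on 11 chromosomes, and 16 of them have another member within 500 kb. Cacng6, Cacng8 and Cacng7 follow each other on chromosome 1 with gaps of 7.42 and 24.5 kb, and their tissue differences were -0.00, 0.78 and -0.03. Scn2b and Scn4b lie 9.35 kb apart on chromosome 8, with tissue differences of 0.29 and -0.93, the second of which did not pass. Scn3a and Scn2a lie 44.7 kb apart on chromosome 3, where Scn1a and Scn7a also lie, and differed by -0.34 and 0.04. Cacng1, Cacng4 and Cacng5 form a row on chromosome 10, with tissue differences of 0.01, -0.26 and -0.34, of which only that of Cacng4 passed. Scn10a and Scn11a, 33.7 kb apart on chromosome 8, were both dim and differed by -0.03 and 0.00, and Cacna2d3 and Cacna1d, 315 kb apart on chromosome 16, by 0.35 and -0.15, none past the test.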

How the data were processed

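Total RNA from tissue pools of 3 rats was labelled and hybridised to Affymetrix rat gene arrays. The authors deposited log2 expression values per transcript cluster, made with RMA (background correction, quantile normalization and probe summary) in Affymetrix Expression Console, per the labels. An exon array is named in the methods, but the identifiers are those annotated for a gene array. The build behind the probe summaries is not given in the sources used. RMA equalises the arrays, so a shift of all genes on an array would be lost, and 2 arrays per group limit the precision.

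Gene names were taken from the platform annotation, with positions from RefSeq (GRCr8), in which all 35 members were found. Group means were compared with limma 3.58.1 in R 4.3.3 on all 27342 clusters and 16 arrays (8 groups, 8 residual degrees of freedom) in 9 comparisons, with Benjamini-Hochberg adjustment over all clusters, and a member was called at an adjusted p under 0.05. A difference is given with its standard error. The fit was tested on simulated data. Figures were drawn with matplotlib in Python. Described genes were, per comparison, the called members (for the tissues up to 8 in each direction, otherwise up to 12), the 3 largest ratios of difference to error where fewer than 5 were called, Cacna2d2, and called partner genes. The values of other members named were given to describe their class. The members, gene lists and rules were chosen with earlier results of these data known. Alternatives were quantile normalization, moderation with trend and robust estimation, array weights, a replicate block, and other filters and subsets of arrays. A random block for the pool took same-numbered arrays of the tissues as 1 pool. Further alternatives were the fold rule of the methods (at least 1.5-fold or at most 0.66-fold, no test) and leaving out each array. The fit without the 6-week control groups was added after seeing the data.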

Additional observations from a re-analysis of the deposited data

Results flagged for a closer look

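The curcumin difference in the cortex changed between 6 and 12 weeks for Cacng3, by -1.07 on the log2 scale, and for Scn2a, by -0.68, in a limma test of the change itself. For Cacng3 the curcumin difference was 0.57 at 6 weeks and -0.51 at 12 weeks, so both durations enter the change, and for Scn2a it was 0.49 and -0.19. In the 6-week control cortex the levels of Cacng3 were 9.79 and 9.22 and those of Scn2a 9.78 and 9.52. On the same arrays the markers of excitatory neurons were at 9.04 and 8.79, against 9.47 to 9.83 on the other 6 cortical arrays. For the same change in the cortex, 3 of these 4 markers were called lower (median -0.93). The part of the markers in the 2 changes was not tested.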

How the results depend on the processing

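Over all alternatives, 590 values of named members kept their direction and their side of the threshold, 124 kept their direction but no longer passed, 11 newly passed, and none changed sign. Quantile normalization called 1 member between 12 and 6 weeks in the control hippocampus (Cacna1a), where it called 1347 of the 27342 clusters. Moderation with trend and robust estimation brought Scn2a past the threshold at 6 weeks in the cortex. With array weights, Scn2a kept its call for the change of the cortical curcumin difference and Cacng3 lost it. The fold rule without a test gave 3 members between tissues, 2 for curcumin at 6 weeks in the cortex and 2 at 12 weeks there. It gave 1 and 6 for the change of the curcumin difference in the hippocampus and cortex, and 3 between 12 and 6 weeks in the control cortex. The 8 arrays of a tissue alone gave 3 between 12 and 6 weeks in the control hippocampus and 0 for curcumin at 12 weeks in the cortex, for its change in the cortex and between 12 and 6 weeks in the control cortex. Control chow arrays alone gave 5 between tissues. The cause of these shifts was not tested.

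Leaving out 1 array at a time gave 7 to 17 members between tissues, 0 to 7 for curcumin at 6 weeks in the cortex, 0 to 1 at 12 weeks in the cortex, 0 to 7 for the change in the cortex, 0 to 1 between 12 and 6 weeks in the control hippocampus and 0 to 11 in the control cortex. The other 3 comparisons stayed at 0. The 7 for the change in the cortex came without replicate 1 of the 6-week control cortex, where 3.81% of all clusters were called. Leaving out that array also gave the highest counts between tissues, for curcumin at 6 weeks in the cortex and in the control cortex. There 11%, 2.77% and 9.27% of all clusters were called, in that order. These fits leave 1 array in the 6-week control cortex. Adjusted p for Scn2a at 6 weeks in the cortex lay between 0.0113 and 0.472.

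Replicate numbers were not shown to pair the arrays, since the deviations of same-numbered arrays correlated at 0.04, -0.06, -0.43 and 0.01 in the diet comparisons and at -0.15 to 0.16 between tissues. With the replicate number as a block, Cacna1b kept its call for curcumin at 12 weeks in the cortex and Cacna1e lost it. Where a member is dim, as Scn10a and Scn11a are, signal near background limits what can be seen.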
